A study of Homo sapiens with 4 samples.

Results

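Liver-enriched transcription factors are the DNA-binding proteins that together set the gene programme of hepatocytes. The genes considered were HNF4A, FOXA1, FOXA2, FOXA3, CEBPA, ONECUT1, PROX1 and GATA4, and their members on the array were the probes annotated with one of these 8 symbols alone. Of the 8 genes, 7 had such a probe, with 2 probes for PROX1 and 1 probe for each of the other genes, among 18365 genes with a probe of their own. HNF4A was named by no probe, alone or together with other genes, and none of its older symbols was found, so that it was not measured here. The cells were HepG2, established from a liver cancer, and A549, established from a lung adenocarcinoma, both human. Each line was cultured for 6 h as control or with 10 μM GSK343, an inhibitor of the histone methyltransferase EZH2, and the labels do not name the vehicle of the control. Cy5-labelled total RNA of each condition was put on 1 Human OneArray Plus array, so that every group is a single array and no group has replicates. The values are the intensities that the authors deposited, on a linear scale, and a difference is the log2 of one value minus the log2 of another. The array medians lay between 449.8 and 498.8, and precision is limited by having only 4 arrays.

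In the liver, HNF4A, a nuclear receptor, and the C/EBP, FOXA and ONECUT proteins bind together at the promoters and enhancers of genes for plasma proteins and for metabolism, and they also maintain the expression of each other. FOXA proteins are pioneer factors, which bind their sites in closed chromatin, and FOXA1 and FOXA2 act in the epithelium of the lung as well. GATA4 acts with FOXA proteins when the liver bud forms, and PROX1 is needed for the outgrowth of hepatoblasts.

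The sequence before the start site is shown for the measured genes that were higher in HepG2 cells and have a promoter in the RefSeq table used here, and for HNF4A in place of array values. Each run holds the 250 bases before a RefSeq start site in GRCh38.p14, written 5′ to 3′ on the strand of the gene. The letters searched on both strands were TGTTTAC or TGTTTGC or TATTTAC for FOXA, TTGCNNAA for C/EBP, ATCAAT for ONECUT, AGATAA for GATA proteins, CAAAGTCCA for HNF4 and TATAAA for a TATA box. Capitals mark a match to any of these, and a FOXA match may share its TTGC with a C/EBP match.
CEBPA, chr19:33302535-33302784, minus strand: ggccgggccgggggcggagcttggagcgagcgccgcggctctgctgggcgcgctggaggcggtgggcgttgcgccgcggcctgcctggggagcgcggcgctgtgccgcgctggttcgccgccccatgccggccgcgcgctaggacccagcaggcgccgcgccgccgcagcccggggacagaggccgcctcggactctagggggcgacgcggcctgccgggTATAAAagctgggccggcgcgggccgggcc
FOXA3, chr19:45864076-45864325, plus strand: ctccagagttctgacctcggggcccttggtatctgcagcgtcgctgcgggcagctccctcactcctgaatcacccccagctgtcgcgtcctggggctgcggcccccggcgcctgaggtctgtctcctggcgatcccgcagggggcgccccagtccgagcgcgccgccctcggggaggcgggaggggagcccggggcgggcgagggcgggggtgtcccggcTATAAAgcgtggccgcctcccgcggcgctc
FOXA1, chr14:37595250-37595499, minus strand: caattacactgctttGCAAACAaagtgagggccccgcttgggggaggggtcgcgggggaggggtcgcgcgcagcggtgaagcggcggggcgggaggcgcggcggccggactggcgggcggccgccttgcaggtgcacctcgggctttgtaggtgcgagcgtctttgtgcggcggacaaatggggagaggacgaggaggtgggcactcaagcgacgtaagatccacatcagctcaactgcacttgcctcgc
ONECUT1, chr15:52790337-52790586, minus strand: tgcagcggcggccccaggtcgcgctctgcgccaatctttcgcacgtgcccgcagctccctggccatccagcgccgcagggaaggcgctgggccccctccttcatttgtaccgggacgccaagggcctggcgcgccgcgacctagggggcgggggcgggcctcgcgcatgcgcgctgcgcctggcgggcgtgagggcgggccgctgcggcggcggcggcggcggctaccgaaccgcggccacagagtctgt
HNF4A, upstream start, chr20:44355449-44355698, plus strand: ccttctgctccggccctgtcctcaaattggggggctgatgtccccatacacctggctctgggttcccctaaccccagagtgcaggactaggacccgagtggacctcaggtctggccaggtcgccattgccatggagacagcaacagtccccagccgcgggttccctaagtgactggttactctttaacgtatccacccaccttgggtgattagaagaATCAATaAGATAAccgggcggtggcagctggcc
HNF4A, downstream start, chr20:44400989-44401238, plus strand: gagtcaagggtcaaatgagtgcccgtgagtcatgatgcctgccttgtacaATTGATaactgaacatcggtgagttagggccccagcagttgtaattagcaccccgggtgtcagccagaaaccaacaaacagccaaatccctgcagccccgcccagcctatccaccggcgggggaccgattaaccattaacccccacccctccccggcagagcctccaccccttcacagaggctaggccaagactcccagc

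CEBPA and FOXA3 each held TATAAA from base -30 to base -25 before the start, letters that 10.7% of the 35116 promoters in the table hold. FOXA1 held GCAAACA, the reverse strand of the FOXA letters TGTTTGC, from base -235 to base -229, and 8.27% of promoters hold a FOXA match. ONECUT1 held none of the letters searched, which says only that they are not in this window. The upstream start of HNF4A held the ONECUT letters ATCAAT and the GATA letters AGATAA, from base -33 to base -28 and from base -26 to base -21, and the downstream start held ATTGAT, the reverse strand of the ONECUT letters, from base -200 to base -195. A match to the ONECUT letters is found in 5.58% of promoters and to the GATA letters in 9.17%. The C/EBP letters, found in 9.05% of promoters, and the HNF4 letters, found in 0.325%, were in none of the 6 sequences. GC content was 81.2% for CEBPA, 76.8% for ONECUT1, 75.2% for FOXA3 and 67.2% for FOXA1, against a median of 58% over all promoters. Both HNF4A starts were close to that median, with 58.4% and 58%. The ratio of observed to expected CpG was 1.01 for CEBPA, 1.005 for ONECUT1, 0.977 for FOXA1 and 0.792 for FOXA3, against 0.377 and 0.396 for HNF4A and a median of 0.558. GGGCGG, the core of a GC box, was also searched on both strands and is not marked by capitals. It was present in each of the 6 sequences, at the downstream start of HNF4A only as its reverse strand CCGCCC, and is present in 42.6% of all promoters. A match is a description of the sequence and shows no binding.

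The lines were checked against their markers. All 12 hepatocyte markers were at least 1 log2 unit higher in the HepG2 control than in the A549 control, and APOA2, ALB and TF, which encode plasma proteins, had differences of 12.74, 11.74 and 11.61 log2 units. Their A549 control intensities were 43.64, 54.07 and 40.79, under the first quartile of that array at 96.76, and the files hold no background measure, so that such sizes are not settled where the lower value is not shown to be above background. Of 13 probes for 12 lung epithelium markers, 11 lay under the array median on the A549 control, among them NKX2-1, the factor that defines lung epithelium, with an intensity of 133.8. None of the 12 was at least 1 log2 unit higher in HepG2 and ABCA3, NAPSA and SFTPD were lower, with ABCA3, a lipid transporter of alveolar cells, at 3059 in the A549 control and 246.8 in the HepG2 control. Of 6 cholangiocyte markers, EPCAM, SOX9, SPP1 and KRT19 were higher in HepG2 by this size and the keratin KRT7 was lower, at 23.0 in the HepG2 control and 56123 in the A549 control. Between the controls 1 of 6 fibroblast markers (PDGFRB), 2 of 5 endothelial markers (VWF and PECAM1) and none of 6 blood cell markers were higher in HepG2, and none was lower. Between the GSK343 arrays VWF and PECAM1 had 0.65 and 0.63 log2 units and did not reach this size, and the blood cell marker PTPRC was lower, with -1.19. Summed over 9 fibroblast, 5 endothelial and 7 blood cell probes, intensity lay between 3404 and 3937, between 1172 and 2128 and between 6083 and 8317 on the 4 arrays, and the part of other cell types in the results was not tested.

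Of the 7 measured factors, 6 were higher in HepG2 than in A549 cells, 5 of them by 7.26-fold to 19.3-fold between the controls. PROX1 was higher by 20.3-fold with one probe and 115.7-fold with the other, against A549 signals near the low end of the array that are not shown to be above background. The A549 control values of FOXA3, ONECUT1 and GATA4, of 186.9, 200.2 and 132.8, were under the array median of 460.1. They are not shown to be above background either, so that the sizes for these genes are not settled. FOXA2 was the exception, with a high signal in both lines. At least 1 log2 unit of difference between the control arrays was found for 6 of the 7 genes, all higher in HepG2, where 13% of 18339 genes were higher and 13.7% were lower by this size. Between the GSK343 arrays the same 6 genes were higher by this size, where 1988 (10.9%) of 18322 genes were higher and 2672 were lower. The median of the 7 genes was 3.64 log2 units between the controls, and the median of all genes was 0.07. Each of these differences rests on 1 array a condition and has no replicate check. With limma over the 4 arrays, with treatment as a block, 7 of the 8 probes were higher in HepG2 at an adjusted p under 0.05, where 15.2% of 31607 probes were higher and 17.4% were lower. This test has 1 residual degree of freedom, from how far the line difference of a probe changed between the control and GSK343 arrays. limma weighs it with 5.885 prior degrees of freedom taken from all probes, so that most of each error is borrowed from other probes. The SE and adjusted p thus do not measure how well the difference of 1 gene repeats. Nothing says that the arrays of a line came from separate cultures. From the arrays, fewer cells that express a gene and less RNA per cell cannot be told apart.

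**Figure D1:**
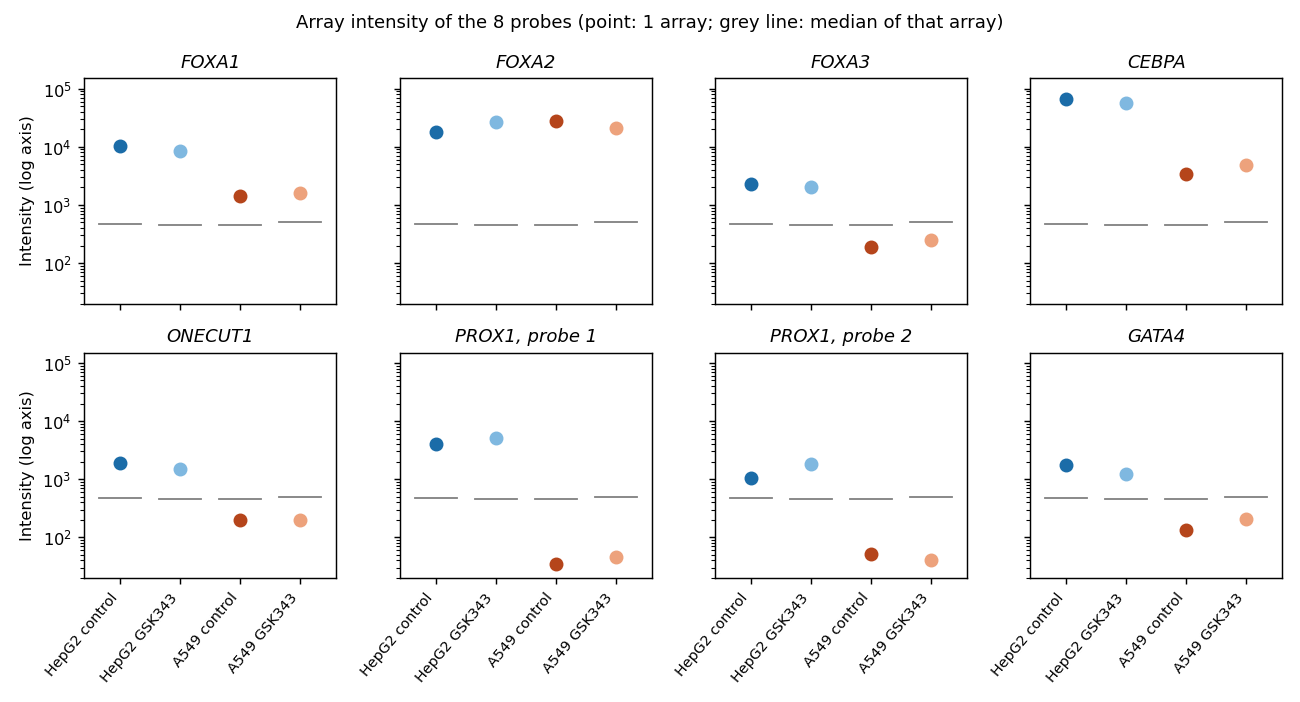
Intensity on a log axis for each probe of the 7 measured genes on the 4 arrays, with the median of each array as a grey line. FOXA2 lies far above the medians on all arrays, while the A549 points of FOXA3, ONECUT1, GATA4 and both PROX1 probes lie under them.

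Among the forkhead genes, FOXA1 had an intensity of 10412 in the HepG2 control and 8329 with GSK343, and of 1434 in the A549 control and 1585 with GSK343. Both HepG2 arrays were thus above both A549 arrays, and all 4 values were above the array medians. FOXA1 was 7.26-fold higher in HepG2 between the controls and 5.25-fold higher between the GSK343 arrays, and limma gave 2.63 ± 0.23 log2 units (SE) over both treatments, with an adjusted p of 1.51e-04. FOXA3, which binds many of the same liver genes as its relatives, had 2332 and 2074 in HepG2, and 186.9 and 247.4 in A549. Its A549 values were under the medians, and its difference was 3.64 log2 units between the controls, 3.07 between the GSK343 arrays and 3.35 ± 0.23 over both (adjusted p = 3.77e-05).

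FOXA2, which with FOXA1 establishes competence for liver development in the endoderm, lay between percentiles 94.0 and 96 of the spots on each array. Its intensity was 18131 in the HepG2 control and 27095 with GSK343, and 27537 in the A549 control and 21162 with GSK343. The ranges of the lines overlap: A549 was 1.52-fold higher than HepG2 between the controls and HepG2 was 1.28-fold higher than A549 between the GSK343 arrays. Over both treatments the difference was -0.12 ± 0.27 log2 units with an adjusted p of 0.777, which does not show that the lines are alike. FOXA2 was the only measured factor with a difference under 1 log2 unit between the controls, at percentile 22.2 of all genes.

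CEBPA, a basic leucine zipper protein that activates genes of metabolism and restrains division in hepatocytes, had an intensity of 66682 in the HepG2 control and 57032 with GSK343. In A549 it had 3452 and 4957, which is well above the array medians, so that a clear signal was present in both lines. The difference was 19.3-fold between the controls and 11.5-fold between the GSK343 arrays, and 3.90 ± 0.25 log2 units over both (adjusted p = 3.16e-05). The antisense gene next to it, CEBPA-AS1, has a probe of its own, with 465.4 and 519.1 in HepG2 and 273.2 and 260.1 in A549.

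ONECUT1, also called HNF-6, is a cut homeodomain protein that acts in hepatocytes and in the formation of bile ducts. It had 1936 and 1495 in HepG2 and 200.2 and 202.4 in A549, so that the A549 arrays were nearly equal and under their medians. The difference between the controls was 9.67-fold, and over both treatments it was 3.08 ± 0.21 log2 units (adjusted p = 3.94e-05). GATA4, a zinc finger protein of early endoderm and heart, had 1725.5 in the HepG2 control and 1204 with GSK343, and 132.8 and 210.3 in A549. The arrays of the lines did not overlap, and the difference was 13.0-fold between the controls but 5.72-fold between the GSK343 arrays. GATA4 thus had the largest change of the line difference among the measured factors, and its limma estimate was 3.11 ± 0.30 log2 units (adjusted p = 2.29e-04).

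PROX1, a homeodomain protein that can repress the activity of HNF4A, had the largest difference of the measured factors. One PROX1 probe had 4062 in the HepG2 control and 5057 with GSK343, and 35.1 and 44.99 in A549. The other PROX1 probe had 1038 and 1826 in HepG2, and 51.2 and 40.1 in A549. Both probes were thus above the medians in HepG2, and in A549 they lay between percentiles 8.56 and 14.5 of the spots. The probes agree in direction and not in size: between the controls, the first gave 6.85 log2 units and the second 4.34, and limma gave 6.83 ± 0.19 (adjusted p = 1.21e-06) and 4.92 ± 0.29 (adjusted p = 2.03e-05). As the mean of both probes the control difference was 5.60 log2 units. With an offset of 50 added to every value before the log it was 4.51 log2 units.

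**Figure D2:**
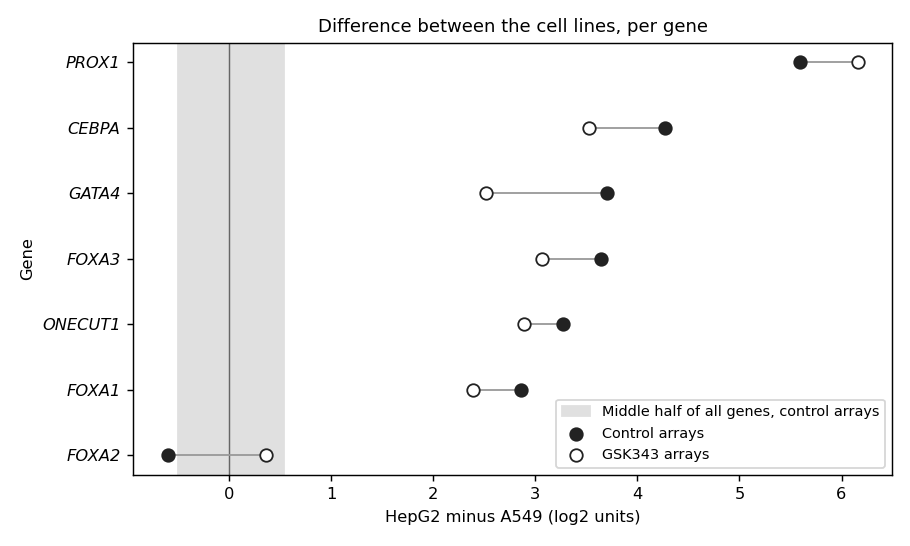
HepG2 minus A549 in log2 units for each gene, between the control arrays (filled) and between the GSK343 arrays (open), with the interquartile range of all genes between the controls in grey. FOXA2 lies at -0.60 and 0.36, and the other 6 genes lie between 2.39 and 6.16 in both pairs.

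The size of a difference was set against a spread between probes, for want of replicates. This is the SD of how far the differences of 2 probes that name 1 gene lie apart, divided by the square root of 2. Variation of cultures or arrays that both probes share cancels in it, so that it does not measure the spread of replicates. It is a spread of single probes, while the PROX1 value is a mean of 2 probes. For the control arrays this spread was 0.92 log2 units over 7424 pairs. The 6 higher genes differed by 3.11 to 6.09 times this spread and lay between percentiles 97.2 and 99.4 of all genes, and FOXA2 differed by 0.656 times the spread. For GSK343 minus control the spread was 0.39 log2 units in HepG2 and 0.42 in A549.

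None of the 7 genes differed by 1 log2 unit or more between GSK343 and control in either line. In HepG2, 0.458% of 18322 genes were higher and 1.87% lower by this size, and in A549 0.932% of 18338 genes were higher and 0.534% lower. Of the genes past this size, 19.7% were higher in HepG2 and 63.6% in A549. These shares depended on the scaling and were 32.5% in HepG2 after quantile normalization and 42.3% in A549 after median centring. Median centring shifted the median of all genes by -0.12 log2 units in A549, by 0.07 in HepG2 and by 0.14 for HepG2 minus A549 between the GSK343 arrays. With limma over both lines, with cell line as a block, none of the 8 probes passed an adjusted p under 0.05, as for 0% of 31607 probes, while 1287 probes had an unadjusted p under 0.05. With the offset of 50, limma called 1 probe higher and 1 lower, neither of them among the 8. The limma estimates of the 8 probes ran from -0.18 ± 0.21 log2 units for ONECUT1 to 0.34 ± 0.19 for the first PROX1 probe, each with an adjusted p of 0.9998.

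In HepG2, 5 of the 7 genes were lower with GSK343 and 2 were higher, where 9773 of all 18322 genes were lower. The differences were -0.17 log2 units for FOXA3, -0.23 for CEBPA, -0.32 for FOXA1, -0.37 for ONECUT1 and -0.52 for GATA4. FOXA2 had 0.58 and PROX1 0.57 log2 units, at percentiles 97.9 and 97.8 of all genes. For GATA4, PROX1 and FOXA2 these values are 1.34, 1.45 and 1.49 times the spread between probes in HepG2, and for the other genes they are under 1 time that spread. Over the 1851 brightest pairs the HepG2 spread was 0.277 log2 units. Of CEBPA, FOXA2 and FOXA1, the measured factors with the highest HepG2 intensities, FOXA1 and FOXA2 exceeded that value and CEBPA did not. Of the dimmer factors, PROX1, GATA4 and ONECUT1 exceeded it and FOXA3 did not. The PROX1 probes gave 0.32 and 0.81 log2 units, both higher with GSK343. Each value comes from 1 array a condition, and no test within a line was possible.

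In A549, GATA4 had a difference of 0.66 log2 units, CEBPA of 0.52, FOXA3 of 0.40 and FOXA1 of 0.14. FOXA2 had -0.38 log2 units. ONECUT1 and PROX1 were near 0, with 0.02 and 0.002 log2 units, and both had negative values after median centring. The PROX1 probes had 0.36 and -0.35 log2 units, opposite directions that cancel in the mean, on signals near the low end of the array. Only GATA4 and CEBPA exceeded the spread between probes over all pairs in A549, at 1.57 and 1.24 times that spread. GATA4 had intensities of 132.8 and 210.3 there, under the array medians, and 0.51 log2 units with the offset of 50. Over the 1855 brightest pairs the A549 spread was 0.376 log2 units. FOXA2, the brightest measured factor in A549, just exceeded that value with -0.380 log2 units, and CEBPA exceeded it too. Of the dimmer factors, GATA4 and FOXA3 exceeded it and FOXA1, ONECUT1 and PROX1 did not.

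The GSK343 differences of 6 of the 7 genes had opposite signs in the lines, where this held for 58.3% of 18313 genes and for 65.4% of the 9157 genes at or above the median level. Lower in HepG2 and higher in A549 were 5 of the 7 genes, against 33.1% of all genes, and 4 of the 7 after median centring or quantile normalization, against 20.4% and 25.3% of all genes. ONECUT1 then had -0.10 and -0.11 log2 units in A549. GATA2 and HNF4G, the 2 paralogs higher in HepG2 by 1 log2 unit, had these signs too, with -0.84 and -0.21 in HepG2 and 0.35 and 0.25 in A549. Of the other liver factors named below as higher in HepG2, NR0B2 and NR1H4 had them, and NR1I2 and CREB3L3 were higher in both lines. The GSK343 contrasts share no array with each other. Each shares its control array with the line difference between the controls, so that the signs are not independent of that difference. FOXA2 was the reverse case, higher in HepG2 and lower in A549. The HepG2 difference minus the A549 difference was 0.96 log2 units for FOXA2, at percentile 98.9 of all genes, and -1.18 for GATA4, at percentile 2.95. Whether the lines differ in their response could not be tested with 1 array a condition.

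**Figure D3:**
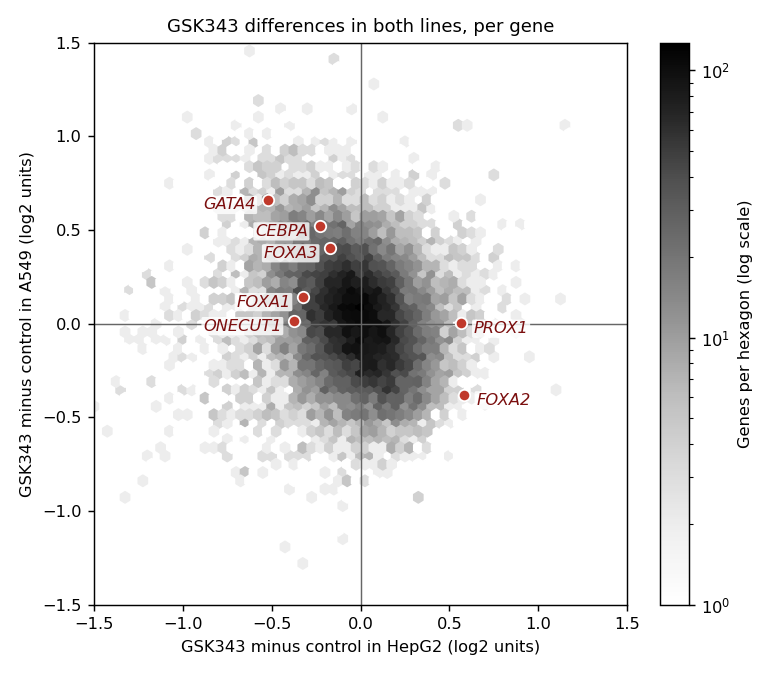
GSK343 minus control in HepG2 (x axis) against A549 (y axis) in log2 units, with the 7 measured genes as points over the density of all genes, of which 189 lie outside the axes. GATA4, CEBPA, FOXA3, FOXA1 and ONECUT1 lie to the upper left and FOXA2 to the lower right of the crossing.

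The paralogs listed are the other HNF4, C/EBP, ONECUT, PROX and GATA genes. Of 13 paralogs, 2 were at least 1 log2 unit higher in HepG2 between the controls and 1 was lower, with a median of 0.22 log2 units. GATA2, a factor of blood and endothelial cells, was higher in HepG2 by 3.53 log2 units, with intensities of 2896 and 1621 in HepG2 and 250.4 and 318.8 in A549. GATA3, a factor of T cells and of several epithelia, was higher in A549, with -3.24 log2 units as the mean of 2 probes against 26.87 in the HepG2 control, which is not shown to be above background. HNF4G, the relative of HNF4A, was 3.25-fold higher in HepG2, and GATA6, a factor of endoderm, had 0.91 log2 units. None of the paralogs differed by 1 log2 unit with GSK343 in either line, and GATA2 came closest with -0.84 log2 units in HepG2.

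Other factors and cofactors of the liver network went both ways between the controls. Between the controls, 10 of the 17 measured genes were at least 1 log2 unit higher in HepG2 and 4 were lower (NR5A2, ATF5, RXRA and SALL4), with a median of 1.82 log2 units. NR1I2, a nuclear receptor for drugs and bile acids, had 5.21 log2 units against 44.59 in the A549 control, not shown to be above background. CREB3L3, a membrane-bound factor of the liver, had 5.15, and NR1H4, the bile acid receptor, had 4.79 log2 units. NR0B2, a repressor of nuclear receptors that NR1H4 induces, was 15.3-fold higher. NR5A2, a nuclear receptor that activates bile acid synthesis, was higher in A549, with -5.39 log2 units as the mean of 2 probes. Its HepG2 control value of 91.32 lay under the first quartile of that array at 100.4 and is not shown to be above background. SALL4 had 77.53 in the HepG2 control, also under that quartile. Between the GSK343 arrays 10 of the 17 genes were higher by 1 log2 unit or more and only NR5A2 was lower. ATF5, RXRA and SALL4 had -0.47, -0.80 and -0.69 log2 units there. None of the 17 genes differed by 1 log2 unit with GSK343 in either line.

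Liver genes whose promoters or enhancers carry sites for these factors were mostly higher in HepG2. Of the 24 measured, 18 were at least 1 log2 unit higher and none was lower between the controls, with a median of 6.76 log2 units. AFP, the fetal plasma protein, had 10.55 log2 units. The other 6 were CYP3A4 (-0.20 log2 units), F7 (0.02), F9 (0.13), CYP7A1 (0.47), PCK1 (0.76) and G6PC (0.90). Their HepG2 control values, from 45.2 for CYP7A1 to 341 for F7, were under the array median of 475.8. With GSK343 none of the 24 differed by 1 log2 unit in either line, and their median difference was 0.03 log2 units in HepG2 and -0.04 in A549. Among the marker lists, none of the hepatocyte or cholangiocyte or fibroblast markers differed by 1 log2 unit with GSK343 in either line. In HepG2 the lung epithelium markers LAMP3 and ABCA3, the endothelial marker TEK and the blood cell marker PTPRC were lower by this size. They had -1.12, -1.12, -1.08 and -1.19 log2 units, where 1.87% of all genes were lower by this size. In A549 the endothelial marker VWF was higher, with 1.25, where 0.932% of all genes were. The levels of these genes in the line concerned were under the array medians. PTPRC had 39.39 in the HepG2 control and 17.3 with GSK343, not shown to be above background.

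**Figure D4:**
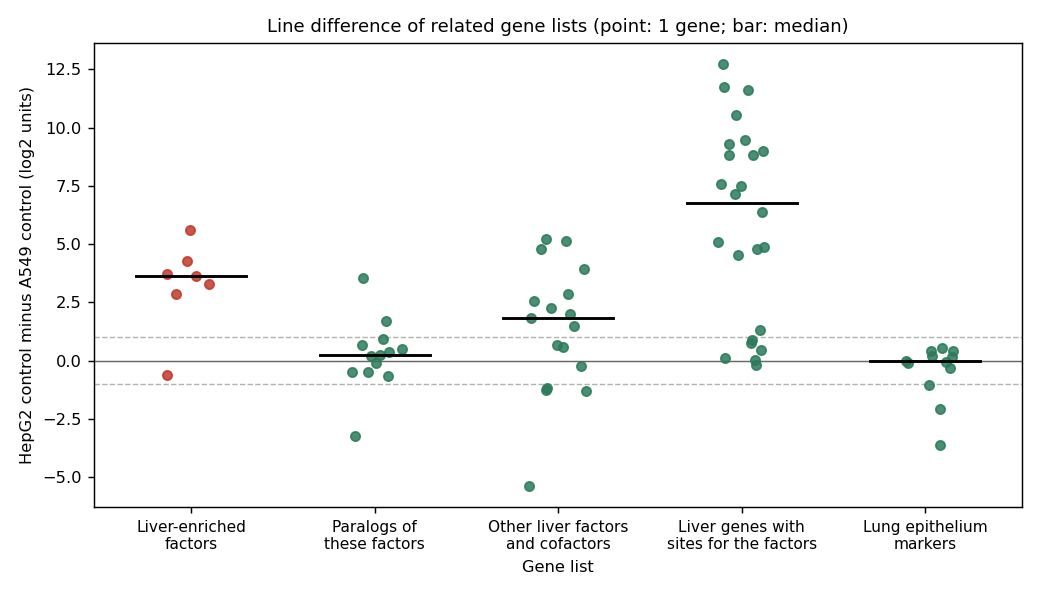
HepG2 control minus A549 control in log2 units for each gene of 5 lists, with the median of each list as a bar and 1 log2 unit marked by dashed lines. The medians are 3.64 for the liver-enriched factors, 0.22 for their paralogs, 1.82 for other liver factors, 6.76 for liver genes with sites and -0.04 for lung epithelium markers.

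Over the 4 arrays, the pattern of a gene was compared with that of 11112 other genes at or above the array median in a control, as the Euclidean distance between log2 values centred on the mean of each gene. Nearest to FOXA1 were ELOVL2 (distance of 0.0787 log2 units), ASPSCR1 and MREG, and nearest to FOXA2 were FAM20C (0.0723), TBL1X and NSMCE1. For FOXA3 they were FRY (0.0752), HOXD1 and LOX, and for ONECUT1 they were CPN2 (0.0590), PIEZO2 and C2orf72. SLC2A10 (0.0960) was nearest to PROX1, before LGALS2 and INHBE, SLC16A6 (0.161) to GATA4, before SLC6A8 and AXIN2, and SOX9 (0.161) to CEBPA, before RNF43 and EMILIN1. Among the measured factors themselves, FOXA3 and GATA4 were closest to each other, with a distance of 0.394, and FOXA2 and PROX1 were farthest apart, with 6.01. These distances describe 4 values for each gene, which share their arrays.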

How the data were processed

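Cy5-labelled RNA of HepG2 and A549 cells, as control or with 10 μM GSK343 for 6 h, was measured on 4 Human OneArray Plus arrays, 1 for each condition. For 31741 probes the authors deposited 1 intensity value an array, not log-transformed, and the scanner, background correction and normalization are not given in the sources used here. Groups were taken from the sample labels. Values of 0 or less, between 41 and 91 probes an array, were left out, and log2 was taken without an offset or scaling. Gene symbols came from the platform annotation, in which 24740 probes name 1 gene, 977 several and 6024 none. A gene value is the mean log2 over the probes that name it alone, and counts used a size of 1 log2 unit.

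limma 3.58.1 in R 4.3.3 was fitted with a variance trend to 31607 probes above 0 on all arrays, with cell line and treatment as terms, two-sided, with Benjamini-Hochberg adjustment over all probes and a threshold of 0.05. The script was tested on simulated data. The rest was computed in Python 3.11.15 (pandas 2.3.3, numpy 2.4.6) and drawn with matplotlib 3.10.9. Promoter sequences are from RefSeq (GRCh38.p14), in a table in which 5 of the 8 genes were matched, HNF4A at 2 starts. Promoters of FOXA2, PROX1 and GATA4 were not used here.

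The genes, the lists and the comparisons were chosen with earlier results of these data known. The rule for named genes took all 8 factors, the 4 genes of each other list with the largest absolute difference between the controls (not all are printed), also NR0B2, and the 3 nearest genes of each factor over the 4 arrays. NKX2-1, CEBPA-AS1, KRT19, ATF5, RXRA, SALL4, TEK and PTPRC were named outside this rule, after their values were seen. So were CYP3A4, F7, F9, CYP7A1, PCK1 and G6PC. Some listed genes are not reported here. Alternatives were median centring, quantile normalization, an offset of 50, the brightest probe of a gene, probes at or above the array median, a size of 1.5 log2 units, and, in limma, robust estimation, a fit with no variance trend and a filter at the median level.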

Additional observations from a re-analysis of the deposited data

Results flagged for a closer look

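The GSK343 difference ran in opposite directions in HepG2 and A549 for 6 of the 7 measured factors, against 58.3% of all genes and 65.4% of those at or above the median level, and this was not tested. With the offset of 50 it held for 7 of 7, and after median centring or quantile normalization for 6 of 7, with PROX1 in place of ONECUT1. The HepG2 difference minus the A549 difference was -0.47 log2 units for FOXA1, 0.96 for FOXA2, -0.57 for FOXA3, -0.75 for CEBPA, -0.39 for ONECUT1 and -1.18 for GATA4. The quartiles of all genes were at -0.35 and 0.23 log2 units. These values use the same control arrays as the line difference between the controls and are not independent of it. For ONECUT1 the A549 value was 0.02 log2 units as deposited and -0.10 after median centring.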

How the results depend on the processing

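The 6 higher genes between the controls were 6 under every alternative, with a size of 1.5 log2 units included, and FOXA2 stayed between -0.65 and -0.53 log2 units. The limma call of 7 probes higher in HepG2 held under no trend, robust estimation, the scalings, the offset and, apart from both PROX1 probes, which fall out by construction, a filter at the median level (5 probes). The highest adjusted p of these calls over the alternatives was 6.89e-04, for GATA4. PROX1 depended most on the processing, with 4.51 log2 units with the offset of 50 and 6.85 with the brightest probe. No measured factor reached 1 log2 unit with GSK343 under any alternative, with FOXA3, ONECUT1, PROX1 and GATA4 left out of the A549 count by the filter on dim probes. With GSK343 in A549, ONECUT1 had a negative value after median centring and quantile normalization, and PROX1 also with the offset.

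Counts over all genes moved. With 1.5 log2 units, 1383 genes were higher and 1550 lower between the controls, 22 and 117 with GSK343 in HepG2, and 34 and 23 in A549. With the offset of 50, 40 were higher and 151 lower in HepG2, 76 and 21 in A549, and limma called 1 probe higher and 1 lower with GSK343. Quantile normalization gave 129 higher in HepG2, and median centring 113 higher and 154 lower in A549. At or above the array median, 140 were lower in HepG2, 97 higher and 22 lower in A549, and limma called 3603 probes lower in HepG2, of fewer tested. The limma fits hold treatment or cell line as a block. Without any 1 array limma has no residual degrees of freedom, and the differences that do not use that array stay as they are. The deposited values have no background columns, which limits what low values, such as those of PROX1 in A549, can show.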
